A study of Homo sapiens with 12 samples.

Results

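The BCL2 family decides whether the outer membrane of the mitochondrion is opened during apoptosis, and 10 of its genes were followed here on both sides of that decision. They were taken by name: the BH3-only genes BBC3, PMAIP1, BCL2L11, BMF, BID and BAD, the effectors BAX and BAK1, and the pro-survival genes BCL2L1 and MCL1. All 10 were found among the 16599 genes of the deposited count table, and all 10 passed the filter on low counts that left 15991 genes for testing. Gene coordinates are those of GENCODE 29 on GRCh38. The study over-expressed SRSF2, a serine/arginine-rich splicing factor, in the established lung cancer cell lines H1650 and A549. Polyadenylated RNA was sequenced from H1650 over-expressing SRSF2, untreated H1650, A549 over-expressing SRSF2 and untreated A549, with 3 libraries in each of the 4 groups. H1650 is a lung adenocarcinoma line with an activating EGFR deletion, and A549 is also a lung adenocarcinoma line. The labels call the control cells untreated, but sample titles add an unexplained NC, so it is not known whether these cells received an empty construct. The labels give no construct, dose or time for the over-expression. The SRSF2 transcript was not analysed here. The labels do not say whether replicates were separate cultures, so p-values measure a spread between libraries that may be technical.

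As background, BH3-only proteins sense stress and bind into a groove on the pro-survival proteins, which frees BAX and BAK to form pores that release cytochrome c. NOXA, the product of PMAIP1, binds mainly MCL1, whereas PUMA (BBC3) and BIM (BCL2L11) bind all pro-survival members. BAD binds BCL-XL, BCL2 and BCL-W, while BCL-XL and MCL1 are the products of BCL2L1 and MCL1. Several members are regulated after transcription, by splicing, phosphorylation, cleavage or rapid turnover of the protein, none of which a gene-level count shows. In bulk RNA, a change in every cell and a change in some of the cells cannot be told apart.

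PMAIP1 and BBC3 had the largest responses of the 10 genes in H1650, so the DNA just upstream of them is shown, 5′ to 3′ on the strand of the gene. The stretches end before the start of the gene in both RefSeq (GRCh38.p14) and GENCODE 29 annotation and lie at chr18:59899746-59899947 (plus strand, 202 bases) for PMAIP1 and chr19:47232767-47232917 (minus strand, 151 bases) for BBC3. Capitals mark the motif matches described next.
PMAIP1: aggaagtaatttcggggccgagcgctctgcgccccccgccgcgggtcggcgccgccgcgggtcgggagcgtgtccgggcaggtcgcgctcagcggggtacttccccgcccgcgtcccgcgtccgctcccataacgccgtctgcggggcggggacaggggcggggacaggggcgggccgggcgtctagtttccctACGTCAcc
BBC3: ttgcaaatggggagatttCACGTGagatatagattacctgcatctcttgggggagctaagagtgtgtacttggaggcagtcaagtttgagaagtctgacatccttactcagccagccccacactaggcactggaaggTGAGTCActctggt
The capitals in PMAIP1 are a match to the ATF/CREB core TGACGT on the opposite strand, at bases -56 to -51 from the RefSeq start. In BBC3 they are a match to the E-box CACGTG at -232 to -227 and a match to the AP-1 motif TGANTCA at -113 to -107. BBC3 also held 2 overlapping matches to the interferon-response (IRF) element, GAAA repeated after 2 free bases, at bases 26 to 35 and 32 to 41 after its start. Matches were counted on both strands in windows of 250 bases before and 50 bases after each RefSeq start. Of 35116 such windows, 7.98% held TGACGT, 7.26% CACGTG, 7.71% TGANTCA, 3.57% the IRF element and 3.62% the C/EBP-ATF motif TGATGNAA. Among the other members, BAX held 4 matches to the E-box, between -138 and -9. BID held the E-box in 2 of its windows, and BAD held the ATF/CREB core in both of its windows. BCL2L11, BMF, BAK1 and BCL2L1 held no match to any of the motifs named here. RefSeq windows were matched by symbol for 9 of the 10 members, all but MCL1. The motifs were chosen with the expression results known, and a match is a run of letters and not a measured binding site.

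Library totals ran from 23876899 to 32079027 counts, so that 3 counts stood for 0.0935 to 0.126 CPM (counts per 1e+06 counts). CPM values below are scaled by TMM, a correction for the composition of the RNA, and the scaling factors lay between 0.936 and 1.032. The common coefficient of variation between libraries was 0.0559 in H1650 SRSF2, 0.0338 in untreated H1650, 0.0344 in A549 SRSF2 and 0.0298 in untreated A549. All 5 epithelial markers were present, and they differed between the lines in both directions. EPCAM averaged 359 CPM in H1650 SRSF2 and 307 CPM in untreated H1650, against 3.72 CPM in A549 SRSF2 and 5.72 CPM in untreated A549. KRT19 (1304 against 97.9 CPM) and CDH1 (1309 against 38.2 CPM) were also higher in untreated H1650 than in untreated A549. KRT8 (4213 against 5008 CPM) and KRT18 (1125 against 1884 CPM) were lower in untreated H1650. Of 5 fibroblast markers COL1A1 and COL3A1 had values, between 0.566 and 14.3 CPM as group means. Leukocyte, endothelial and erythroid markers had no values in the table used.

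Genes on both sides of the family changed with SRSF2 over-expression, in both lines, and PMAIP1, BBC3 and MCL1 rose further in H1650 than in A549. In H1650, PMAIP1, BBC3, MCL1, BAK1 and BCL2L1 rose and BMF, BID and BAX fell, while BCL2L11 and BAD did not pass the test. These 8 of 10 members stand against 62.3% of all tested genes called in H1650 (31% higher and 31.3% lower) at a Benjamini-Hochberg adjusted p under 0.05 in edgeR's quasi-likelihood test. In A549, BBC3, BMF, PMAIP1, MCL1 and BAX rose and BCL2L11 and BID fell, while BAK1, BCL2L1 and BAD did not pass. These 7 of 10 members stand against 32.3% of all tested genes (16.4% higher and 15.9% lower). Rises of 1 or more on the log2 scale were seen for 3 members in H1650 (PMAIP1, BBC3 and MCL1, beside 7.27% of all tested genes) and for 1 in A549 (BBC3, beside 1.75%). No member fell that far, beside 3.35% of all tested genes in H1650 and 0.375% in A549. Every SRSF2 library lay above every untreated one for 5 members in H1650 (32.1% of all tested genes) and for 5 in A549 (22.7%). Every SRSF2 library lay below for 2 members in H1650 (32.6%) and for 3 in A549 (23%). The members' median log2 fold change was 0.27 in H1650 and 0.07 in A549, beside medians over all tested genes of 0 in H1650 and 0.0021 in A549.

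**Figure D1:**
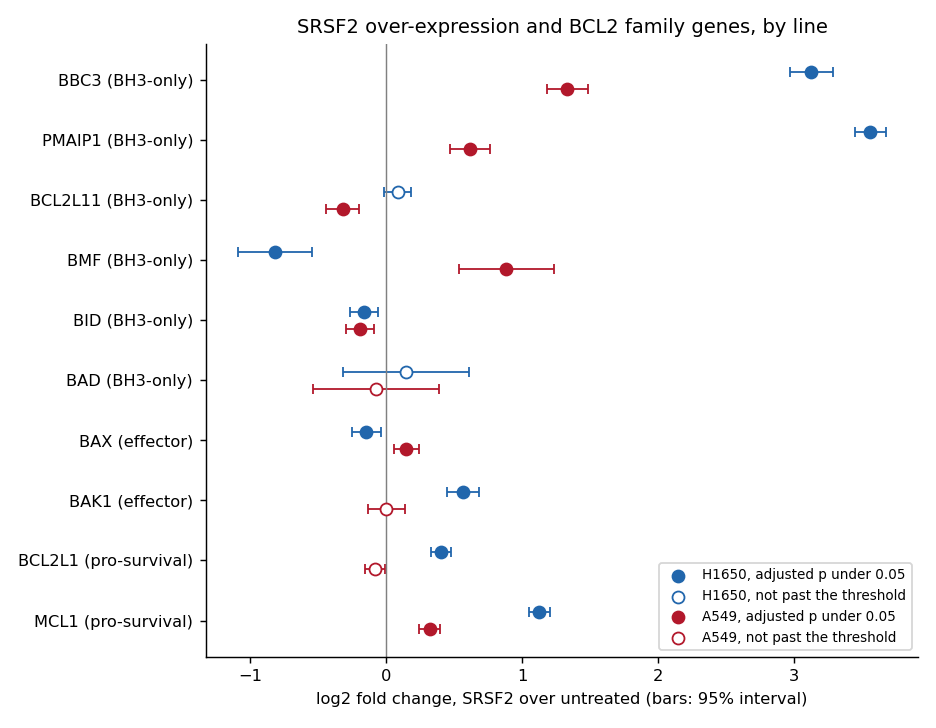
Log2 fold change of SRSF2 over untreated libraries (horizontal axis) for each BCL2 family gene in H1650 (blue) and A549 (red), with 95% intervals from edgeR; filled points passed the adjusted p threshold of 0.05. PMAIP1 (3.56) and BBC3 (3.13) in H1650 lie far to the right of all other points, and BMF lies on opposite sides of 0 in the 2 lines.

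PMAIP1 (chr18:59899948-59904306, plus strand), whose product NOXA neutralises MCL1, showed the largest change of any member. It stood at 441, 412 and 356 CPM in the 3 H1650 SRSF2 libraries, against 34.6, 34.4 and 33.1 CPM in untreated H1650. Even the lowest H1650 SRSF2 library, replicate 3, lay far above the highest untreated one. The rise was 11.8-fold (log2 3.56, SE 0.056, edgeR adjusted p = 1.63e-32), and 75 genes (0.469% of those tested) had a larger log2 fold change in H1650. In A549, PMAIP1 stood at 24.6, 25.2 and 25.4 CPM with SRSF2, against 16.9, 16.2 and 15.98 CPM untreated. These groups did not overlap either, and the rise was 1.53-fold (log2 0.62, SE 0.072, edgeR adjusted p = 2.28e-08). The A549 SRSF2 libraries thus stayed below the untreated H1650 libraries. The log2 change was larger in H1650 than in A549 by 2.95 (SE 0.092, edgeR adjusted p = 3.53e-23).

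BBC3 (chr19:47220822-47232766, minus strand), which encodes the broad-range BH3-only protein PUMA, rose in both lines. Its levels were 81.3, 69.3 and 76.4 CPM in H1650 SRSF2 libraries, against 8.71, 7.23 and 9.96 CPM in untreated H1650. The gap between the groups was many times the spread within them, an 8.75-fold rise (log2 3.13, SE 0.077, edgeR adjusted p = 4.27e-27). In A549 the levels were 36.6, 40.4 and 39.3 CPM with SRSF2, against 14.7, 15.4 and 16.1 CPM untreated. This was a 2.52-fold rise without overlap (log2 1.33, SE 0.075, edgeR adjusted p = 8.28e-16), the largest of any member in A549. Only 159 genes (0.994%) had a larger log2 fold change in A549, and 119 (0.744%) in H1650. Its untreated H1650 libraries were the lowest of all 12 and its H1650 SRSF2 libraries the highest, an order shared among the members by BCL2L1. Its change was larger in H1650 by 1.80 on the log2 scale (SE 0.11, edgeR adjusted p = 2.38e-15).

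**Figure D2:**
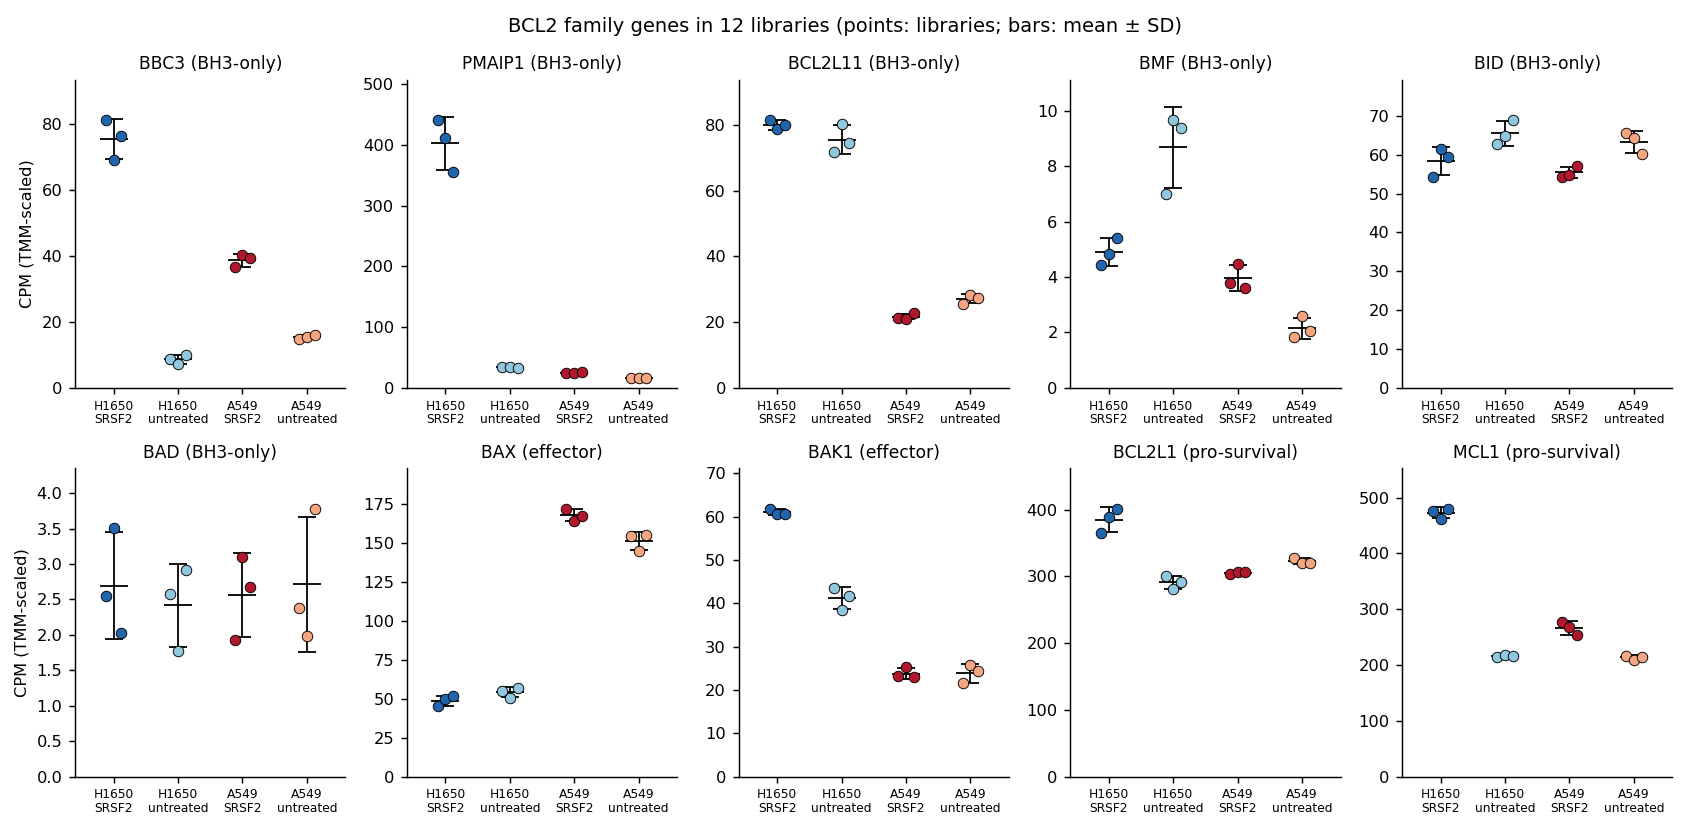
TMM-scaled CPM (vertical axes, each from 0) of the 10 genes in H1650 SRSF2, untreated H1650, A549 SRSF2 and untreated A549 libraries, with points for libraries and bars for the mean ± SD of 3. PMAIP1 and BBC3 stand highest in H1650 SRSF2, BMF and BAX move in opposite directions in the 2 lines, and BAD overlaps in all 4 groups.

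BMF (chr15:40087890-40108892, minus strand), a BH3-only protein held on the cytoskeleton until it is released, went in opposite directions in the 2 lines. In H1650 it stood at 4.42, 4.85 and 5.41 CPM with SRSF2, against 7.01, 9.67 and 9.37 CPM untreated. In A549 it stood at 3.80, 4.49 and 3.61 CPM with SRSF2, against 1.85, 2.58 and 2.04 CPM untreated. The SRSF2 libraries lay wholly below the untreated ones in H1650 and wholly above them in A549. The fall in H1650 was -0.82 on the log2 scale (SE 0.13, edgeR adjusted p = 2.17e-06), and the rise in A549 was 0.88 (SE 0.17, edgeR adjusted p = 1.13e-04). The changes differed between H1650 and A549 by -1.70 (SE 0.22, edgeR adjusted p = 5.27e-08). With these opposite changes, the SRSF2 groups of the 2 lines came to overlap, although BMF averaged 8.68 ± 1.46 CPM in untreated H1650 and 2.16 ± 0.378 CPM in untreated A549 (SD, n = 3 each). As log2(FPKM + 1) of the authors' deposited FPKM, a scale that compresses genes of low level, the changes were -0.21 in H1650 and 0.11 in A549, both past the threshold in limma.

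BCL2L11 (chr2:111119378-111168447, plus strand), which encodes BIM, an activator of BAX and BAK, fell in A549. Its levels there were 21.4, 21.0 and 22.7 CPM with SRSF2, against 25.5, 28.3 and 27.4 CPM untreated, with no overlap (log2 -0.32, SE 0.061, edgeR adjusted p = 8.32e-05). In H1650 they were 81.5, 78.6 and 79.9 CPM with SRSF2, against 71.8, 80.4 and 74.3 CPM untreated. Here the groups overlapped through untreated replicate 2, and the change of 0.08 did not pass (95% interval -0.02 to 0.18, edgeR adjusted p = 0.137). Without that library it was 0.13 and passed (edgeR adjusted p = 0.0392), and over 21 alternatives the adjusted p ran from 0.0392 to 0.969. The change was higher in H1650 than in A549 by 0.40 (SE 0.078, edgeR adjusted p = 5.17e-05). On log2(FPKM + 1) the difference for BCL2L11 was 0.11 and the A549 change -0.11, both still past the threshold in limma. BCL2L11 shares 10.9% of its exon bases with the lincRNA MIR4435-2HG on the opposite strand. MIR4435-2HG, looked at for this overlap after its values were seen, was 0.21 higher on the log2 scale with SRSF2 in H1650 and 0.19 higher in A549. Whether the counting used strand is not given in the sources used here, so its part in the BCL2L11 counts was not tested.

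BID (chr22:17734138-17774770, minus strand), which caspase-8 cleaves to link death receptors to the mitochondrion, fell in both lines. In H1650 it stood at 54.3, 61.4 and 59.4 CPM with SRSF2, against 62.7, 64.8 and 68.9 CPM untreated (log2 -0.16, SE 0.051, edgeR adjusted p = 0.00565). The A549 levels were 54.3, 54.9 and 57.2 CPM with SRSF2, against 65.6, 64.3 and 60.1 CPM untreated (log2 -0.19, SE 0.052, edgeR adjusted p = 0.00421). In both lines every SRSF2 library lay below every untreated one. The difference between the changes was 0.03 (95% interval -0.12 to 0.18, edgeR adjusted p = 0.792), which leaves room for a difference of either sign.

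BAD (chr11:64269830-64284704, minus strand), a BH3-only protein kept inactive by phosphorylation, was among the least abundant members and the least precisely measured. It had 47 to 111 counts per library, with 1.92 to 3.51 CPM in the SRSF2 libraries and 1.77 to 3.78 CPM in the untreated ones of both lines. The groups overlapped in both lines, with log2 changes of 0.14 in H1650 (95% interval -0.32 to 0.61, edgeR adjusted p = 0.606) and -0.07 in A549 (95% interval -0.54 to 0.39, edgeR adjusted p = 0.839). A rise of about 1.5-fold in H1650 lies within that interval, so a change of that size is not excluded. BAD shares 23.7% of its exon bases with GPR137 on the opposite strand, and GPR137 was the more abundant, at 57.2 CPM in H1650 SRSF2, 55.6 CPM in untreated H1650, 35.1 CPM in A549 SRSF2 and 35.4 CPM in untreated A549.

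The effectors, which form the pore itself, did not move together. BAX (chr19:48954815-48961798, plus strand) stood at 45.2, 49.6 and 51.5 CPM in H1650 SRSF2 libraries, against 54.6, 50.5 and 56.9 CPM in untreated H1650. The groups overlapped through SRSF2 replicate 3 and untreated replicate 2, and the fall of -0.15 on the log2 scale was small (SE 0.052, edgeR adjusted p = 0.0148). In A549 BAX stood at 172, 164 and 167 CPM with SRSF2, against 154, 145 and 155 CPM untreated, a rise of 0.15 without overlap (SE 0.045, edgeR adjusted p = 0.0115). Neither call was firm. The H1650 call was lost without untreated replicate 3 (adjusted p = 0.0980), without SRSF2 replicate 1 (0.107) or with the A549 libraries left out of the fit (0.0554), in an overall range of 0.00293 to 0.107. The A549 call was lost without untreated replicate 2 (adjusted p = 0.0983), without SRSF2 replicate 1 (0.0628) and on deposited FPKM (0.0682 or 0.0833), in an overall range of 8.63e-04 to 0.0983. The difference between the lines, -0.29 (SE 0.069, edgeR adjusted p = 5.93e-04), stayed past the threshold in all 20 alternatives, from -0.37 to -0.24.

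BAK1 (chr6:33572547-33580293, minus strand), the effector that resides on the mitochondrion and is held by MCL1 and BCL-XL, rose in H1650. It stood at 61.8, 60.7 and 60.6 CPM with SRSF2, against 43.4, 38.5 and 41.6 CPM untreated, a 1.48-fold rise without overlap (log2 0.57, SE 0.057, edgeR adjusted p = 1.44e-10). In A549 it stood at 23.1, 25.3 and 22.9 CPM with SRSF2, against 21.5, 25.7 and 24.3 CPM untreated. These libraries interleaved, and the interval of the log2 change ran from -0.135 to 0.135 (edgeR adjusted p = 0.9997). The change was larger in H1650 by 0.57 (SE 0.088, edgeR adjusted p = 1.87e-06). GENCODE 29 lists the BAK1 pseudogenes BAK1P1 and BAK1P2, which may share reads with it.

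Among the pro-survival genes, MCL1 (chr1:150574551-150579738, minus strand), the short-lived guard of BAK and the partner of NOXA, rose in both lines. In H1650 it stood at 476, 462 and 480.4 CPM with SRSF2, against 215, 218 and 216 CPM untreated, a 2.19-fold rise with little spread in either group (log2 1.13, SE 0.037, edgeR adjusted p = 9.52e-24). In A549 it stood at 277, 269 and 254 CPM with SRSF2, against 217, 209 and 215 CPM untreated, a smaller rise (log2 0.32, SE 0.037, edgeR adjusted p = 1.86e-08). The libraries did not overlap in either line. The change was larger in H1650 by 0.81 (SE 0.052, edgeR adjusted p = 6.32e-15), and 1186 genes (7.42%) had a larger log2 fold change than MCL1 in H1650.

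BCL2L1 (chr20:31664452-31723989, minus strand), which gives the pro-survival BCL-XL and, by another 5′ splice site, the pro-apoptotic BCL-XS, rose in H1650. Its levels were 365, 389 and 402 CPM with SRSF2, against 300.4, 282 and 291 CPM untreated, without overlap (log2 0.40, SE 0.037, edgeR adjusted p = 1.42e-11). In A549 they were 304, 306 and 306 CPM with SRSF2, against 328, 321 and 320.3 CPM untreated. The SRSF2 libraries lay below the untreated ones, but the change of -0.08 did not pass (SE 0.037, edgeR adjusted p = 0.0925). It did pass with DESeq2 size factors in edgeR (0.0304), in DESeq2 (0.0249), with the H1650 libraries left out of the fit (0.0261) and without H1650 SRSF2 replicate 1 (0.0477). Over all 21 alternatives the adjusted p ran from 0.0249 to 0.247. The change was higher in H1650 by 0.49 (SE 0.052, edgeR adjusted p = 1.74e-09). Gene-level counts sum BCL-XL and BCL-XS, and likewise the long and short forms of MCL1 and of BCL2L11. The antisense gene ABALON covers 43.0% of the exon bases of BCL2L1 and has no value of its own in the table used.

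For 8 of the 10 members the SRSF2 change itself differed between the lines, against 47.5% of all tested genes. It was more positive in H1650 for PMAIP1, BBC3, MCL1, BAK1, BCL2L1 and BCL2L11 (23.5% of all genes) and more negative for BMF and BAX (24%). The members' median difference, H1650 minus A549, was 0.45 on the log2 scale, beside -0.0063 over all tested genes. A difference of 1 or more was seen for PMAIP1 and BBC3 (beside 5.54% of all tested genes) and of -1 or less for BMF (3.71%). All 8 passed the test in the 20 alternatives. Only for BID and BAD did the difference not pass the test.

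The lines also differed without over-expression, in 7 of 10 members against 82.4% of all tested genes (40.1% higher and 42.3% lower in untreated H1650). BMF (log2 2.01), BCL2L11 (1.48), PMAIP1 (1.06) and BAK1 (0.79) were higher in untreated H1650 than in untreated A549. BAX (-1.49), BBC3 (-0.83) and BCL2L1 (-0.15) were lower, all past the threshold in edgeR with the largest adjusted p, 3.97e-04, for BCL2L1. Differences of 1 or more on this scale were seen for 3 members upward (18.7% of all tested genes) and for BAX downward (20.6%). The libraries of untreated H1650 lay wholly above those of untreated A549 for 4 members (40.9%) and wholly below for 3 (43.1%). BAX averaged 54.0 ± 3.22 CPM in untreated H1650 and 151 ± 5.82 CPM in untreated A549 (SD, n = 3 each). MCL1 started level in the 2 lines, at 216 ± 1.73 CPM in untreated H1650 and 214 ± 4.07 CPM in untreated A549 (95% interval of the log2 difference -0.06 to 0.09, edgeR adjusted p = 0.643). With upper quartile scaling, which moved the median of all genes in this contrast to -0.13, the MCL1 difference was -0.08 and passed (edgeR adjusted p = 0.0490, in a range of 0.0490 to 0.872 over 21 alternatives).

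To set the members beside each other, CPM was divided by the length of each gene's annotated exons in kb (CPM per kb). In H1650 SRSF2 libraries PMAIP1 came first, at 180.3 ± 19.4 CPM per kb, above BCL2L1 at 116 ± 5.67 and MCL1 at 108 ± 2.25 CPM per kb (SD, n = 3). In untreated H1650 PMAIP1 lay below both effectors, at 15.2 ± 0.367 CPM per kb, and overlapped BID at 14.7 ± 0.714 CPM per kb. There BCL2L1 led with 87.8 ± 2.80 CPM per kb, followed by MCL1 with 49.5 ± 0.395 CPM per kb. BBC3 climbed to 23.8 ± 1.91 CPM per kb with SRSF2 in H1650, against 2.72 ± 0.430 CPM per kb untreated, and so passed BAX, BID and BCL2L11 in the order.

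In A549 the top of the order did not change: BCL2L1, BAX and MCL1 led at 92.1, 64.8 and 61.0 CPM per kb with SRSF2, against 97.5, 58.5 and 48.9 CPM per kb untreated. Below them BBC3 reached 12.2 ± 0.606 CPM per kb with SRSF2, where it overlapped BID, against 4.84 ± 0.213 CPM per kb untreated. BMF and BAD were the lowest members in every group, BMF at 0.396 to 1.59 and BAD at 1.42 to 1.59 CPM per kb as group means. These orders depend on the exon lengths used, and so does the first place of BCL2L1. In the authors' deposited FPKM, MCL1 stood above BCL2L1 in all 4 groups. In untreated A549 MCL1 had FPKM of 44.3, 42.8 and 43.9, against 5.68, 5.56 and 5.52 for BCL2L1. With the authors' deposited FPKM, whose lengths mostly include introns, 38 and 39 of the 45 member pairs kept their order in H1650 SRSF2 and untreated libraries, and 36 and 39 in those of A549.

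**Figure D3:**
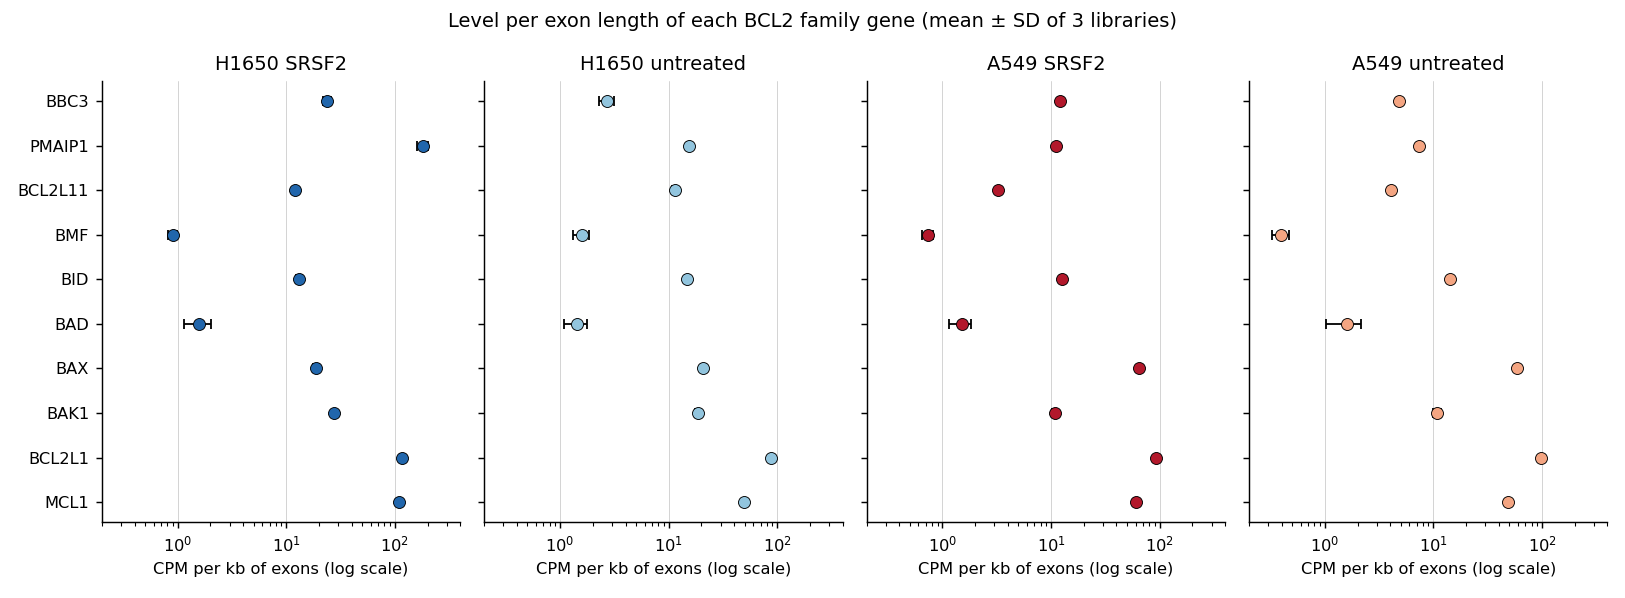
Mean level per exon length (CPM per kb, log axis) ± SD of 3 libraries for each BCL2 family gene, with a panel for each of the 4 groups. PMAIP1 is the highest point in H1650 SRSF2 (180.3 CPM per kb) and lies far lower in the other 3 groups, where BCL2L1 leads.

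Summed by role, the BH3-only members came to 232 ± 19.6 CPM per kb in H1650 SRSF2 and 47.0 ± 1.08 CPM per kb in untreated H1650. PMAIP1 alone made up 75.5% to 79.0% of that sum in the 3 H1650 SRSF2 libraries. In A549 the BH3-only sum was 41.4 ± 1.36 CPM per kb with SRSF2 and 32.5 ± 0.0419 CPM per kb untreated. The pro-survival sum was 224 ± 6.21 CPM per kb with SRSF2 and 137 ± 2.43 CPM per kb untreated in H1650, and 153 ± 2.40 and 146 ± 2.07 CPM per kb in A549 SRSF2 and untreated A549. In H1650 SRSF2 the BH3-only sum lay above the pro-survival sum in replicate 1 (250 against 219 CPM per kb) and replicate 2 (235 against 223). In replicate 3 it lay below (211 against 231 CPM per kb). In the other 3 groups the BH3-only sum stayed well below the pro-survival one. These sums, like the orders above, depend on the exon lengths used. Effectors summed to 46.4 ± 0.953 CPM per kb with SRSF2 and 39.5 ± 2.21 CPM per kb untreated in H1650, and to 75.5 ± 1.17 and 69.3 ± 1.72 CPM per kb in A549 SRSF2 and untreated A549 (SD, n = 3 in each group).

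Ratios of transcripts whose proteins bind each other were taken within each library, where library scaling cancels. The ratio of PMAIP1 to MCL1 was 1.81, 1.74 and 1.45 in H1650 SRSF2 libraries, against 0.315, 0.308 and 0.300 in untreated H1650. In A549 it was 0.184 ± 0.0109 with SRSF2 and 0.150 ± 0.00386 untreated (SD, n = 3 each). By exon length, PMAIP1 thus exceeded MCL1 in H1650 SRSF2 libraries only, although MCL1 rose there too. In the authors' deposited FPKM the same ratio was 1.07, 1.03 and 0.856 in H1650 SRSF2 libraries, so whether PMAIP1 exceeded MCL1 in replicate 3 depends on the lengths used. BBC3 to BCL2L1 was 0.205 ± 0.0242 with SRSF2 and 0.0309 ± 0.00450 untreated in H1650. In A549 it was 0.132 ± 0.00596 with SRSF2 and 0.0497 ± 0.00281 untreated. In deposited FPKM this ratio was 1.11, 0.888 and 0.948 in H1650 SRSF2 libraries.

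For the effectors the ratios moved otherwise. BAX to BCL2L1 was lower with SRSF2 in H1650, at 0.162 ± 0.00288 against 0.238 ± 0.0111 untreated, and higher with SRSF2 in A549, at 0.703 ± 0.0200 against 0.600 ± 0.0215 untreated (SD, n = 3 each). BAK1 to MCL1 was lower with SRSF2 in both lines, at 0.255 ± 0.00531 against 0.376 ± 0.0256 in H1650 and 0.177 ± 0.0104 against 0.221 ± 0.0234 in A549. In none of these 8 comparisons did the SRSF2 and untreated libraries overlap. Among single genes, every SRSF2 library lay above every untreated one for 32.1% of all tested genes in H1650 and 22.7% in A549. Every SRSF2 library lay below for 32.6% in H1650 and 23% in A549. The pairs are made of members whose own changes are given above, so this count is not separate from those changes. The log2 changes in H1650 were 2.43 for PMAIP1 to MCL1, 2.74 for BBC3 to BCL2L1, -0.55 for BAX to BCL2L1 and -0.56 for BAK1 to MCL1. In A549 they were 0.30, 1.41, 0.23 and -0.32 for the same pairs. In deposited FPKM, BAX to BCL2L1 was 1.06, 1.09 and 1.09 in H1650 SRSF2 libraries, and BAK1 to MCL1 was 0.0850, 0.0861 and 0.0826. The size of each ratio thus depends on the lengths used. These are ratios of RNA, and the proteins were not measured.

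**Figure D4:**
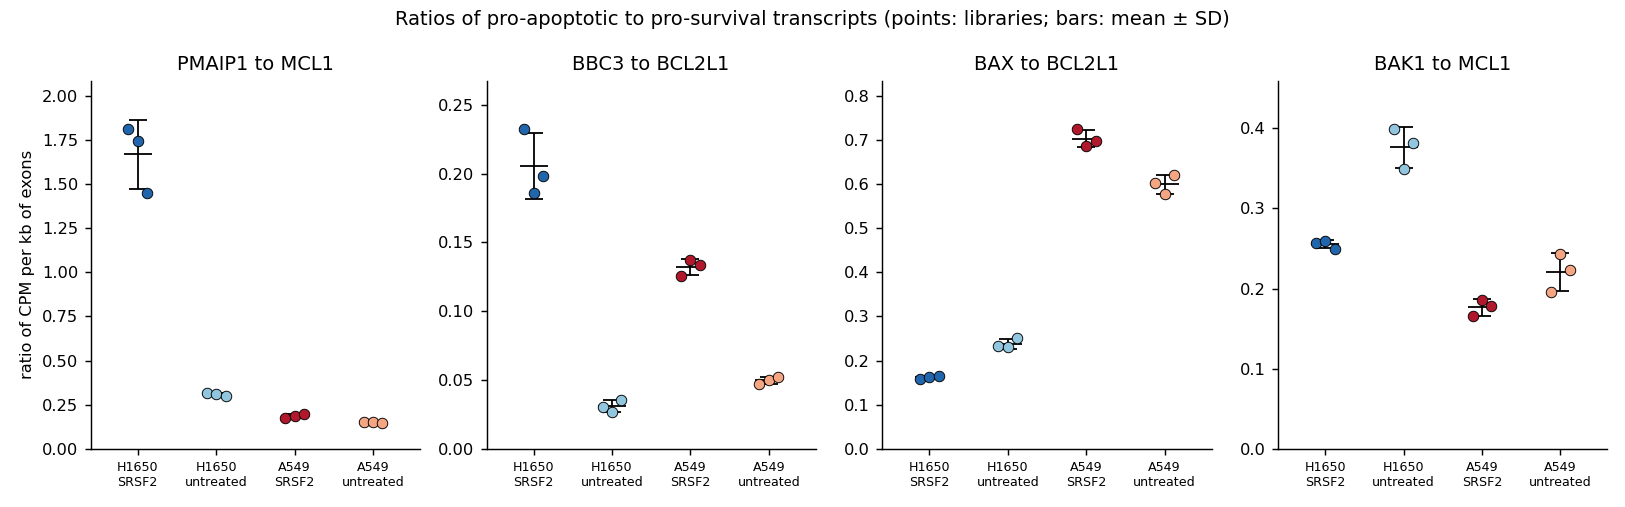
Ratio of CPM per kb of exons (vertical axes, each from 0) for 4 pairs of pro-apoptotic and pro-survival genes in each library of the 4 groups, with the mean ± SD of 3 libraries. PMAIP1 to MCL1 exceeds 1 in the H1650 SRSF2 libraries only, and BAX to BCL2L1 moves down in H1650 and up in A549.

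The rest of the family was read from a list of 15 genes, of which 13 were tested. In H1650, 7 rose and 1 fell, beside the 31% and 31.3% of all tested genes given above. HRK, a BH3-only gene best known in neurons, rose to 20.5 ± 2.29 CPM in H1650 SRSF2, against 5.72 ± 0.773 CPM untreated (log2 1.84, edgeR adjusted p = 2.53e-14). BIK, a BH3-only gene whose product lies on the endoplasmic reticulum, rose to 10.2 ± 1.27 CPM, against 3.98 ± 0.759 CPM untreated (log2 1.36, edgeR adjusted p = 1.48e-10). BOK, an effector-like member, fell to 78.0 ± 10.4 CPM, against 134 ± 5.59 CPM untreated (log2 -0.78, edgeR adjusted p = 1.54e-13). BCL2L13 rose by 0.53 and BNIP3 by 0.47 on the log2 scale. BCL2A1, a pro-survival gene induced by NF-kB, was called in H1650 (log2 2.12, edgeR adjusted p = 0.00757), but on 5, 4 and 16 counts with SRSF2 against 0, 1 and 5 counts untreated, which overlap.

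In A549, 3 of the 13 rose and 2 fell, beside 16.4% and 15.9% of all tested genes. BNIP3L, a mitophagy receptor, rose by 0.33 on the log2 scale (edgeR adjusted p = 7.88e-07), and BCL2A1 rose to 5.21 CPM with SRSF2, against 3.16 CPM untreated (log2 0.72, edgeR adjusted p = 0.00367). HRK was called higher at a very low level, 1.121 ± 0.403 CPM with SRSF2 and 0.572 ± 0.373 CPM untreated, with overlapping libraries (edgeR adjusted p = 0.0184). BCL2L12 (-0.19) and BOK (-0.21) fell. BCL2 itself, named here although it did not pass, was low in both lines, at 0.700 ± 0.122 CPM in H1650 SRSF2, 0.450 ± 0.0525 CPM in untreated H1650, 3.91 ± 0.0904 CPM in A549 SRSF2 and 3.75 ± 0.720 CPM in untreated A549.

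A further list held genes that mostly act downstream of the pore, together with VDAC channels of the outer membrane such as VDAC3. Of its 16 genes 15 were tested, and more of them fell than rose in both lines. The inhibitors XIAP and DFFA are among them, so a fall does not have the same meaning for every gene. In H1650, 5 rose and 9 fell, beside 31% and 31.3% of all tested genes. HTRA2, a protease released from mitochondria, rose by 0.89 and CYCS, which encodes cytochrome c, by 0.51 on the log2 scale. DFFA, the inhibitor of the caspase-activated nuclease, fell by 0.42, and DFFB, the nuclease itself, fell by 1.19. In A549, 1 rose and 5 fell, beside 16.4% and 15.9% of all tested genes. XIAP, a caspase inhibitor, rose by 0.13 in A549 but fell by 0.27 in H1650. The 5 that fell in A549 were VDAC3 (-0.17), CASP6 (-0.35), AIFM1 (-0.15), DFFA (-0.15) and DFFB (-0.35). The median log2 change of these 15 genes was -0.21 in H1650 and -0.10 in A549.

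Of 20 partners and turnover factors of the members, 9 rose and 5 fell in H1650, and 4 rose and 4 fell in A549. All tested genes stood at 31% higher and 31.3% lower in H1650, and at 16.4% and 15.9% in A549, so the A549 counts lie near those shares. SFN, a 14-3-3 protein that binds BAX and BAD, rose to 1897 ± 75.0 CPM in H1650 SRSF2, against 663 ± 24.2 CPM untreated (log2 1.52, edgeR adjusted p = 3.49e-27), and by 0.15 in A549 (edgeR adjusted p = 0.00179). MARCHF5, a mitochondrial ubiquitin ligase that acts on MCL1 with NOXA, rose by 0.96 in H1650 and did not pass the test in A549. MTCH2, the receptor of cleaved BID, fell by 0.78 in H1650 and by 0.13 in A549. DYNLL2, the dynein light chain that tethers BMF, rose by 0.57 in H1650 and fell by 0.11 in A549. FBXW7, a ubiquitin ligase subunit for MCL1, rose by 0.16 in H1650 and by 0.48 in A549. CASP2 fell in both lines (-0.17 in H1650 and -0.22 in A549), and YWHAG fell in A549 (-0.12).

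Among 20 transcription regulators known to act on members, 13 rose and 3 fell in H1650 and 14 rose and 1 fell in A549, with median log2 changes of 0.54 in H1650 and 0.34 in A549. These counts stand beside 31% and 31.3% of all tested genes in H1650 and 16.4% and 15.9% in A549. This list, like the others, was chosen with earlier results of these data known, so the counts are no test of it. ATF3, which acts on PMAIP1 and BBC3 in the stress response, averaged 624 ± 132 CPM in H1650 SRSF2 and 59.1 ± 2.77 CPM in untreated H1650 (log2 3.40, edgeR adjusted p = 1.49e-26). In A549 it averaged 55.4 ± 3.63 CPM with SRSF2 and 5.89 ± 0.743 CPM untreated (log2 3.23, edgeR adjusted p = 6.28e-20). The difference between these changes, 0.17, did not pass (95% interval -0.17 to 0.51, edgeR adjusted p = 0.432). JUN, a subunit of AP-1, rose by 2.68 in H1650 and by 1.04 in A549, a larger change in H1650 by 1.65 (edgeR adjusted p = 3.99e-15). IRF1, an interferon-response factor, rose by 1.65 in H1650 and by 0.35 in A549, a larger change in H1650 by 1.30 (edgeR adjusted p = 1.80e-15). EGR1 rose in both lines, by 2.16 in H1650 and by 4.69 in A549, where untreated cells held 0.835 ± 0.156 CPM, and E2F1 fell by 0.16 in H1650 and by 0.75 in A549.

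Genes of like pattern were found by the root mean square (RMS) difference of log2 CPM, each gene centred on its own mean, over all 12 libraries. ISG20, an interferon-induced exonuclease, came closest to PMAIP1 (RMS 0.116 on the log2 scale), with 379.8 CPM in H1650 SRSF2, 29.7 CPM in untreated H1650, 23.4 CPM in A549 SRSF2 and 13.1 CPM in untreated A549. The next was MXD1 (RMS 0.205). DNAJB9, a chaperone of the endoplasmic reticulum, came closest to BBC3 (RMS 0.231), with 86.4 CPM in H1650 SRSF2, 11.4 CPM in untreated H1650, 34.3 CPM in A549 SRSF2 and 15.5 CPM in untreated A549. By the same measure PMAIP1 and BBC3 were far from each other (RMS 1.28), although BBC3 was the member nearest to PMAIP1. NFKBIA, the inhibitor of NF-kB, came closest to MCL1 (RMS 0.0713), RPL27A to BAX (0.0606), DYNLL2 to BAK1 (0.0775) and FNBP1L to BCL2L11 (0.0822). CD2BP2 came closest to BCL2L1 (RMS 0.0466), ECI1 to BID (0.0439), HECW2 to BMF (0.231) and ZNF668 to BAD (0.270). The 12 libraries share 4 groups, so a small RMS mostly reflects like group means.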

How the data were processed

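Gene counts were deposited by the authors as whole reads per gene. The submitters' processing notes name fastp 0.20.1, STAR 2.7.7a, featureCounts 2.0.0 and the build GRCh38. FPKM was deposited too and derives from those counts, per the values of both tables. Its length is the whole genomic span, with introns, for 11519 gene IDs (71.4% of the 16139 matched to GENCODE 29), so FPKM served in alternatives only. Annotation release, strandedness and gene filter are not given in the sources used here. The lowest sum over the 12 libraries was 27 counts. Symbols were found for 16076 IDs in a gene name table and for 63 in GENCODE 29, and not for 460.

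Libraries were grouped by line and treatment as labelled. The test was edgeR 4.0.16 (R 4.3.3) with filterByExpr, TMM scaling and a quasi-likelihood fit to the 12 libraries, which had a mean for each of 4 groups and 8 residual degrees of freedom. Benjamini-Hochberg adjustment ran over all 15991 genes tested, with a threshold of 0.05. The standard error was worked back from the log2 fold change and its F statistic. CPM per kb divides by the union of GENCODE 29 exons. Replicates differed by more than sampling noise (chi-square over its degrees of freedom 2.24 to 7.78). Residuals of libraries with the same replicate number correlated between -0.013 and 0.0273 across treatments within a line, and replicate numbers were not treated as pairs. The fit was tested on simulated data.

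Alternatives were DESeq2 size factors and upper quartile scaling in edgeR, DESeq2 1.42.0, no filter, at least 1 CPM in 3 libraries, a replicate block, only the groups compared, limma 3.58.1 on log2(FPKM + 1) and log2(FPKM + 0.1), and leaving out each library. Members and gene lists were chosen with earlier results of these data known. Of each other list, up to 4 called genes with the smallest adjusted p in each line could be named. The rule added any other BCL2 family gene called with a log2 change of 1 or more, and 2 genes of most like pattern per member among genes with a mean of at least 5 CPM. BCL2, DFFB, MIR4435-2HG and GPR137 were named outside the rule, after their values were seen. A further motif and its matches are not reported here.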

Additional observations from a re-analysis of the deposited data

Results flagged for a closer look

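For 8 of the 10 members the SRSF2 change differed between H1650 and A549 by a test of the difference itself (edgeR, H1650 minus A549, on the log2 scale), beside 47.5% of all tested genes. The difference was 2.95 for PMAIP1, 1.80 for BBC3, 0.81 for MCL1, 0.57 for BAK1, 0.49 for BCL2L1, 0.40 for BCL2L11, -0.29 for BAX and -1.70 for BMF. For BMF and BAX the sign of the change itself was opposite in the 2 lines. For PMAIP1, BBC3 and MCL1 the change was positive in both lines and larger in H1650. The spread between libraries was wider in H1650 SRSF2 (coefficient of variation 0.0559) than in the other 3 groups (0.0298 to 0.0344), and its part in these differences was not tested.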

How the results depend on the processing

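Of 830 values of the members under alternatives, 790 kept their direction and their side of the threshold, 7 lost the call, 5 gained it and 28 changed sign. All counts of called genes and members stayed within 1.5 times their value. The log2 change with SRSF2 of each member-pair ratio kept its sign. Library scaling and gene length cancel in that change, so the scaling and FPKM alternatives could not have altered it. The calls lost were those of BAX in both lines, and the calls gained were those of BCL2L1 in A549 and BCL2L11 in H1650, with their values given above. Signs changed only for members that had not passed the test. BAK1 in A549 was -0.0214 with DESeq2 size factors, -0.0218 in DESeq2, -0.00157 with the replicate block, -0.00428 and -0.00491 on FPKM with 1 and 0.1 added, and between -0.0684 and 0.0565 when each library was left out. BAD was between -0.255 and 0.245 in A549, between -0.0946 and 0.323 in H1650, between -0.104 and 0.397 for the difference and between -0.338 and 0.160 for untreated H1650 against untreated A549 over the alternatives. The difference for BID was -0.0291 and -0.0472 on FPKM with 1 and 0.1 added, and between -0.0107 and 0.0724 when each library was left out. Between untreated lines, MCL1 was -0.00668 with DESeq2 size factors, -0.0786 with upper quartile scaling (past the threshold), -0.00669 in DESeq2 and -0.0213 and -0.0218 on FPKM, and BID was -0.0492 with upper quartile scaling. The cause was not tested. On log2(FPKM + 1), which compresses low values, BBC3 rose by 2.02 in H1650 and 0.90 in A549, and BID in A549 was -0.12. Differences between the lines on that scale were 1.13 for BBC3 and -0.32 for BMF, and those between untreated lines were -0.43 for BBC3, 0.70 for BCL2L11 and 0.35 for BMF. BAX in H1650 was -0.22 on log2(FPKM + 0.1), and BCL2L1 between untreated lines was -0.25 with upper quartile scaling.

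With the replicate number within each line as a block, 5 members rose and 3 fell in H1650 and 5 rose and 2 fell in A549, as without it, and no member's call changed. Leaving out each library gave 5 or 6 rises and 2 or 3 falls in H1650, and 4 or 5 rises and 2 or 3 falls in A549. Depth limits BAD (47 to 111 counts per library) and BMF most.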
